A study of Mus musculus with 12 samples.

Results

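The receptor sequences described here are T cell receptor beta chains (TRB) whose CDR3 loop carries a hydrophobic residue at its apex. Productive beta contigs were taken from 6 single-cell receptor libraries, each CDR3 nucleotide sequence was counted once per library, and CDR3 of 12 to 16 amino acids were kept. Counting the first cysteine as position 1, a member had phenylalanine, isoleucine, leucine, methionine, valine, tryptophan, tyrosine or cysteine at position 6, at position 7 or at both. Of 3790 eligible sequences 1082 (28.5%) were members and the other 2708 formed the contrast. Position 6 alone was hydrophobic in 462 members, position 7 alone in 575, and both in 45 (1.19% of the eligible sequences). The residues chose the members, so the residues themselves are given as a description and are not tested.

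The libraries came from CD45+ leukocytes sorted from brain parenchyma or from the membranes that cover it (the meninges) in C57BL/6 mice. NonTg mice served as controls, and 5xFADTg mice carry transgenes expressed from a neuronal promoter, build up amyloid plaques and serve as a model of Alzheimer disease. Parenchyma gave 2 libraries per genotype (NonTg parenchyma 1 and 2, 5xFADTg parenchyma 1 and 2) and meninges gave 1 per genotype. The labels give no age, sex or treatment and do not say which animals, or how many, a library stands for, so part of the variation among libraries may be technical. The libraries held 15827899 to 26710709 reads, 49997 to 128700 unique molecular identifiers (UMIs) and 407 to 2058 cells with a productive beta chain. Of 6805 cell barcodes with such a chain, 20 occurred in 2 or more libraries. Each meningeal library shared identical beta sequences with the parenchyma of its own genotype, from 31 to 54 per pair of libraries, against 0 to 2 with the other genotype, so libraries of the 2 tissues are not fully independent. CD4+ and CD8+ T cells were not told apart, as the gene expression samples are not used here.

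The CDR3 is the part of the receptor assembled during T cell development by joining a V, a D and a J segment, with bases trimmed from and added to the ends. In the beta chain its middle, the apex of the loop, lies over the peptide held by an MHC molecule, and hydrophobic residues at positions 6 and 7 have been associated with self-reactivity of developing T cells. The mouse has a pair of D segments. TRBD1 can join either J cluster, whereas TRBD2 lies downstream of the TRBJ1 cluster and normally joins only TRBJ2. Both D segments can be read in each of their reading frames. Invariant natural killer T (iNKT) cells instead see lipids on CD1d and combine a fixed alpha chain with a limited set of beta V segments.

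The members that filled the most cells show what such an apex looks like in nucleotides. For the 2 largest members of each library, bases 16 to 21, which are codons 6 and 7, are in capitals.
NonTg parenchyma 1, TRBV10 and TRBJ2-7, 55 cells: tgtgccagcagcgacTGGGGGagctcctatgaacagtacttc
NonTg parenchyma 1, TRBV16 and TRBJ2-1, 41 cells: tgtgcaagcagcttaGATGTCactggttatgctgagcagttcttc
NonTg parenchyma 2, TRBV13-2 and TRBJ2-7, 99 cells: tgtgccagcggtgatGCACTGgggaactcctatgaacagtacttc
NonTg parenchyma 2, TRBV19 and TRBJ2-1, 72 cells: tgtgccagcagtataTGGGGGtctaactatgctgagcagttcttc
5xFADTg parenchyma 1, TRBV13-2 and TRBJ2-7, 42 cells: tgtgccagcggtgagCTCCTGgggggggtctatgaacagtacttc
5xFADTg parenchyma 1, TRBV20 and TRBJ2-1, 28 cells: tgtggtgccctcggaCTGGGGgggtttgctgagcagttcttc
5xFADTg parenchyma 2, TRBV1 and TRBJ2-5, 115 cells: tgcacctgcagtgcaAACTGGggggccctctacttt
5xFADTg parenchyma 2, TRBV19 and TRBJ2-7, 40 cells: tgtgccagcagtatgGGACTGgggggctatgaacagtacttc
NonTg meninges, TRBV14 and TRBJ1-1, 6 cells: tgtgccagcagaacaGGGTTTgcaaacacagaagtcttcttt
The second meningeal member of NonTg mice, in 6 cells, was the TRBV19 and TRBJ2-1 sequence that filled 72 cells of NonTg parenchyma 2. In 5xFADTg meninges the 2 largest were the TRBV1 sequence (18 cells) and the TRBV19 sequence (3 cells) of 5xFADTg parenchyma 2. The largest member carries asparagine and tryptophan (AACTGG) at the apex, and the one in 99 cells alanine and leucine (GCACTG). All but 1 of the listed sequences carry a TRBJ2 label, and in most of them the capitals run into a stretch of g. The TRBJ2-5 label of the largest member is uncertain. Its last bases, ccctctacttt, also close the TRBJ1-6 germline segment, whereas a TRBV3 and TRBJ2-5 member of NonTg parenchyma 1 ends in acccagtacttt. Which J segment the largest member used was not tested, and it is counted under its label.

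Leucine and tryptophan made up most of the hydrophobic apex. Tryptophan stood at position 6 in 156 sequences and at position 7 in 221, and leucine in 166 and 212. At least 1 of these residues was present in 744 members (68.8%). Valine followed with 98 sequences at position 6 and 69 at position 7, while tyrosine (35 and 37), isoleucine (23 and 48), phenylalanine (18 and 30) and methionine (11 and 3) were rarer. Cysteine, which can pair into disulfide bonds, occurred at neither position in 3790 sequences, which allows a share of up to 0.0792% at each. The codon ctg wrote 114 of the 166 leucines at position 6 and 148 of the 212 at position 7. The order of the residues was not the same at both positions, since isoleucine was less frequent than tyrosine at position 6 and more frequent at position 7, and library ranges of these residues overlapped.

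**Figure D1:**
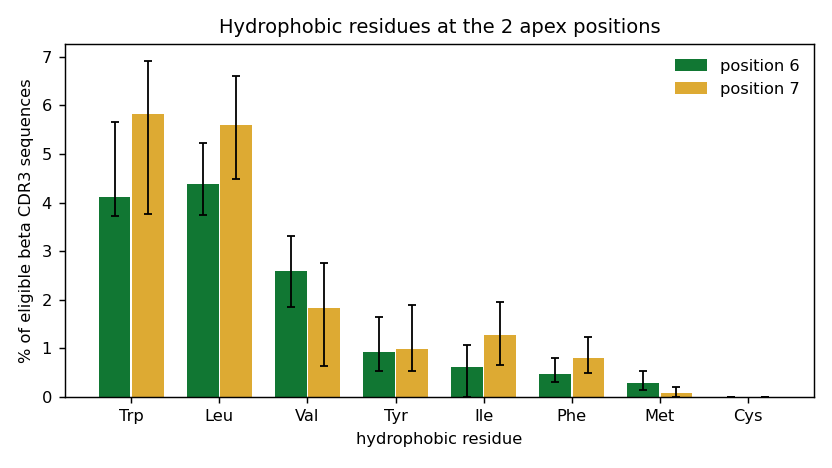
Share of the 3790 eligible beta CDR3 sequences (y axis, percent) with each hydrophobic residue (x axis) at position 6 and at position 7. Bars are all libraries together and whiskers run from the lowest to the highest of the 6 libraries. Tryptophan and leucine reach 4.12% and 4.38% at position 6 and 5.83% and 5.59% at position 7, and cysteine is at 0.

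A few apex pairs recurred in every library. Aspartate followed by tryptophan was found in 134 members, leucine followed by glycine in 117, tryptophan followed by glycine in 117, and glycine followed by leucine in 91. Between 93.4% and 98.5% of the sequences with each of these 4 pairs used TRBJ2. Valine followed by glycine, in 37 members, used TRBJ2 in 70.3%, and glycine followed by valine, in 28 members, in 53.6%. The residue after the apex, position 8, was glycine in 48.0% ± 3.96 (SD, n = 6 libraries) of members and in 30.6% ± 2.49 of the contrast. The range over libraries was 43.1% to 53.4% in members and 26.0% to 32.8% in the contrast, so the classes did not overlap. A hydrophobic residue at position 8 was less frequent in members, at 8.85% ± 1.83 against 13.5% ± 1.60. Before the apex, at position 5, it was present in 32.9% ± 3.74 of members and 30.2% ± 3.69 of the contrast. These flanking comparisons were added after the data were seen. Residues beside the apex can come from the same D segment, so the comparisons are not independent of the rule. In TRBD2 the tryptophan codon and the leucine codon are each followed by glycine codons. The within-library difference at position 8 had the same sign in 6 of 6 libraries both for glycine and for hydrophobic residues (two-sided exact sign-flip test, p = 0.0312 each, the smallest 6 libraries can give, adjusted p = 0.266 over 17 added comparisons), and at position 5 in 4 of 6 (exact p = 0.344).

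The D segments are shown because their reading frames separate members from the contrast. TRBD2 lies on chromosome 6 at 41542163 to 41542176 (mm10, plus strand, GENCODE M21) and TRBD1 at 41533201 to 41533212. The capitals mark the tryptophan codon in one frame of TRBD2 and the leucine codon in the next.
TRBD2, frame with tryptophan: gggacTGGgggggc
TRBD2, frame with leucine: gggaCTGggggggc
TRBD1: gggacagggggc
Each CDR3 was searched, between the bases that match germline V and J, for its longest match of at least 5 bases to a D segment. Of the 406 sequences with TRBD2 in the tryptophan frame 77.3% were members, and of the 373 in the leucine frame 73.5%. TRBD2 in its remaining frame, which reads glycine, threonine and glycine, gave 9.59% members of 365 sequences. The 3 frames of TRBD1 gave 9.80% of 551, 13.6% of 448 and 7.39% of 433. No frame of TRBD1 writes one of the 8 hydrophobic residues in its whole germline codons. Since the rule reads the same codons, these shares are a description.

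Over all assessed members 61.7% of 1010 matched TRBD2, 14.6% matched TRBD1, 1.68% matched both equally and 22.1% matched neither. Of 2615 contrast sequences 19.9% matched TRBD2 and 49.1% TRBD1. By library TRBD2 was matched by 58.4% to 65.6% of members and by 17.6% to 22.7% of the contrast, without overlap. Short matches can be wrong. TRBJ1 sequences, in which TRBD2 is not expected, gave a TRBD2 match in 52 cases (4.07%). The deposited D calls could not replace the match, since only 20 members carried a TRBD2 call and 3 a TRBD1 call, against 14 and 64 contrast sequences.

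Many of the hydrophobic codons lay within a D match. At position 6, 42.4% of the 481 assessed hydrophobic codons fell wholly within a D match, none wholly within the V match and 1 wholly within the J match. At position 7, 56.9% of 571 fell within a D match and 2.80% within J. Every one of the codons that lay wholly within a D match, 204 at position 6 and 325 at position 7, wrote leucine or tryptophan. No other result was possible, since whole germline codons of the D segments write no other hydrophobic residue. Nor could a hydrophobic codon 6 lie wholly within the V match. Only the TRBV3 end holds a whole codon 6, gcc, which writes alanine. Outside V, J and D matches lay 17.9% of the hydrophobic codons at position 6 and 14.7% at position 7, and there 40 of 86 and 37 of 84 wrote leucine or tryptophan.

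Members used the TRBJ2 cluster more often than the contrast in every library. In members the TRBJ2 share was 77.1%, 76.4%, 85.4%, 83.1%, 75.0% and 83.8% in NonTg parenchyma 1 and 2, 5xFADTg parenchyma 1 and 2, NonTg meninges and 5xFADTg meninges. In the contrast it was 58.9%, 60.5%, 60.5%, 56.4%, 62.8% and 56.2% in the same order. The lowest member value was above the highest contrast value. The means were 80.1% ± 4.48 (SD, n = 6) and 59.2% ± 2.58, 20.9 percentage points apart (two-sided exact sign-flip test, p = 0.0312, the smallest 6 libraries can give, adjusted p = 0.156 over 10 results). Where codons 6 and 7 both lay outside the germline V and J matches, a comparison added after the data were seen, the difference was 26.4 points.

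Read the other way, 15.7% of the 1322 TRBJ1 sequences and 35.4% of the 2468 TRBJ2 sequences were members. The share of members in TRBJ1 ran from 11.8% to 21.5% over the libraries and that in TRBJ2 from 30.2% to 38.7%. Within sequences that matched TRBD1, which joins both clusters, the clusters were close, at 10.4% ± 4.19 in TRBJ1 and 10.7% ± 1.26 in TRBJ2. The mean within-library difference there was 0.281 points and positive in 4 of 6 libraries (two-sided exact sign-flip test, p = 0.875, added after the data were seen). Sequences that matched no D segment had 24.0% ± 7.32 members in TRBJ1 and 26.7% ± 3.72 in TRBJ2 (exact p = 0.5, same added family). Sequences that matched TRBD2 had 54.4% ± 4.88 members in TRBJ2 and 41.8% ± 15.5 in TRBJ1, 12.6 points apart and higher in TRBJ2 in 5 of 6 libraries (exact p = 0.0938, adjusted p = 0.304 over 17 added comparisons), where the TRBJ1 side held 52 sequences in all. The wide spread in TRBJ1 limits what difference could have been seen. The D match is read from the bases that also hold the apex codons, so these shares are not independent of the rule. Whole germline codons of TRBD1 write no hydrophobic residue, so a low share in both clusters is in part set by the match. Why the clusters differ was not tested.

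**Figure D2:**
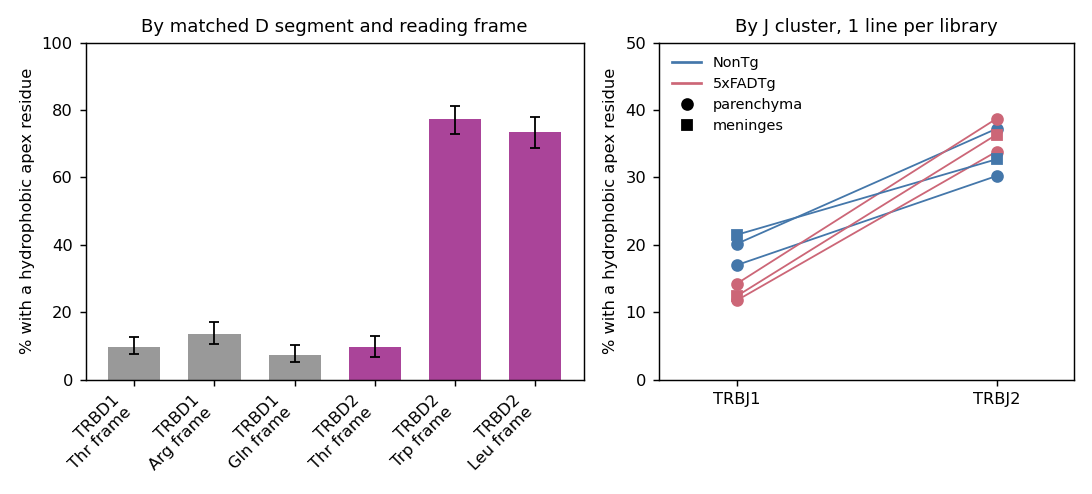
Left, share of sequences with a hydrophobic apex residue (y axis, percent) by matched D segment and reading frame, the frames named for the residue that differs, with 95% exact binomial intervals. Right, the same share in TRBJ1 and TRBJ2 sequences, 1 line per library. The tryptophan and leucine frames of TRBD2 stand at 77.3% and 73.5%, the other 4 frames between 7.39% and 13.6%, and all 6 lines rise from TRBJ1 to TRBJ2.

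Among single segments, edgeR's quasi-likelihood test of members against the contrast with library as block called 5 of 33 segments higher in members (15.2% of those tested) and 5 lower (15.2%). Of the 6 TRBJ2 segments 3 were higher and none lower (median log2 fold change 0.40, against 0.01 over all 33 segments). Of the 6 TRBJ1 segments 4 were lower and none higher (median -1.38). Of the 21 TRBV segments 2 were higher and 1 lower. V, and in short CDR3 also J, can write part of the apex codons, so this fit is not independent of the rule.

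TRBJ2-1 gained most among the J segments. It made up 17.5% ± 2.38 (SD, n = 6 libraries) of members and 8.90% ± 2.77 of the contrast, a log2 fold change of 0.87 ± 0.16 (SE, edgeR adjusted p = 1.92e-06), higher in 6 of 6 libraries. TRBJ2-5 followed with 14.5% ± 2.37 against 9.51% ± 2.07 (log2 0.59 ± 0.17, edgeR adjusted p = 0.00238, 6 of 6). At length 14 alone TRBJ2-1 lost its call (log2 0.47, edgeR adjusted p = 0.229), and TRBJ2-5 lost it with cells in place of sequences (log2 0.64, edgeR adjusted p = 0.177). TRBJ2-7, the most used J segment with 240 members, had 22.2% ± 1.84 against 18.4% ± 3.19 and missed the threshold (log2 0.33, edgeR adjusted p = 0.0511), which it passed with TMM factors and with DESeq2. TRBJ2-4 passed narrowly (log2 0.46, edgeR adjusted p = 0.0409, 5 of 6 libraries) and lost the call without any 1 of 5xFADTg meninges (adjusted p = 0.0843), 5xFADTg parenchyma 1 (0.107), 5xFADTg parenchyma 2 (0.136) or NonTg parenchyma 1 (0.106).

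The TRBJ1 segments with lower use were TRBJ1-1 (4.48% of members, 13.0% of the contrast, log2 -1.59), TRBJ1-2 (2.55% and 8.36%, log2 -1.91), TRBJ1-3 (2.57% and 6.43%, log2 -1.32) and TRBJ1-5 (1.18% and 3.55%, log2 -1.45). Each was lower in members in 6 of 6 libraries, and the largest of the 4 edgeR adjusted p-values was 0.000535, for TRBJ1-5. At length 14 alone TRBJ1-3 (edgeR adjusted p = 0.0881) and TRBJ1-5 (0.374) lost their calls. TRBJ1-4 differed from its cluster. It made up 6.50% ± 1.56 of members and 6.35% ± 1.35 of the contrast (log2 0.03 ± 0.21, edgeR adjusted p = 0.976).

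The germline start of TRBJ1-4 is shown because it reaches into the apex. Its first bases, in capitals, fall in codon 7 when the segment is untrimmed in a CDR3 of 14 residues, and any base before them gives phenylalanine, isoleucine, leucine or valine. In TRBJ1-6 the capitals are a tyrosine codon that falls at position 7 in a CDR3 of 13 residues.
TRBJ1-4: TTtccaacgaaagattatttttc
TRBJ1-6: ttccTATaattcgcccctctacttt
All 26 sequences of 14 residues with a complete TRBJ1-4 were members, and at that length 37 of all 93 TRBJ1-4 sequences were. At 15 residues, where the same bases fall after the apex, 12 of 70 were (17.1%). TRBJ1-6 had 11 members of 18 sequences at 13 residues and 2 of 28 at 14. When only sequences with codons 6 and 7 outside germline V and J matches were fitted, TRBJ1-4 stood with its cluster (log2 -1.27 ± 0.35, edgeR adjusted p = 0.00169). In that fit 2 of 30 segments were higher (6.67%), namely TRBJ2-1 and TRBJ2-5, and 7 were lower (23.3%), namely TRBJ1-1 to TRBJ1-5, TRBV29 and TRBV5.

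**Figure D3:**
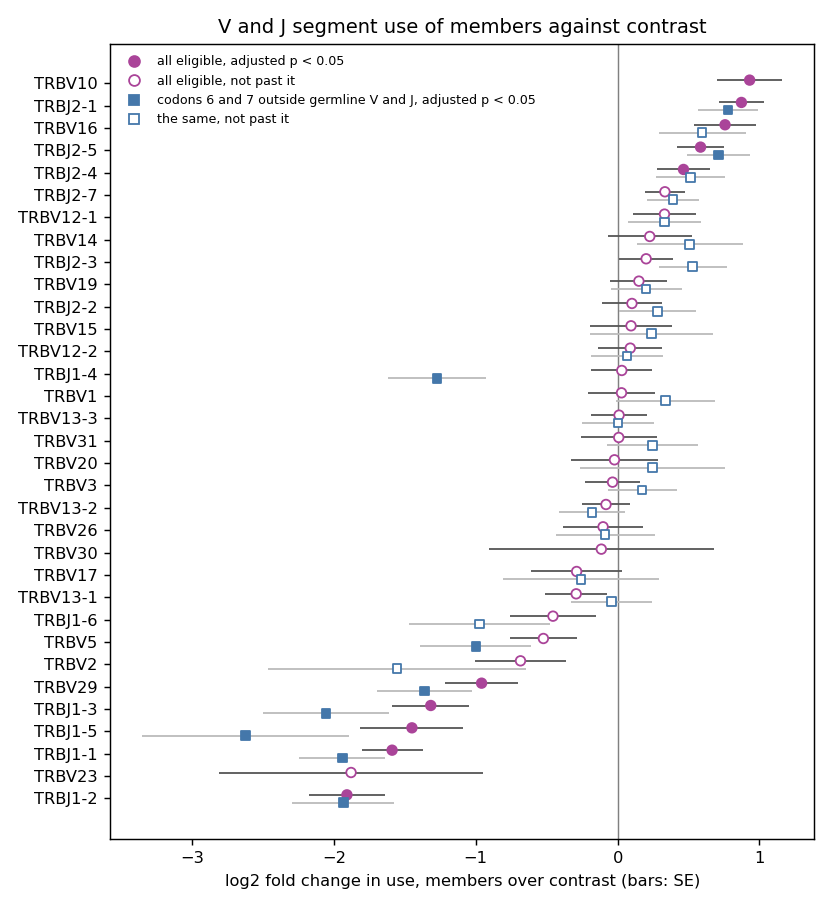
Log2 fold change in the use of each V or J segment, members over contrast (x axis), with standard errors. Circles are all eligible sequences (33 segments) and squares are those with codons 6 and 7 outside germline V and J matches (30 segments), filled where the edgeR adjusted p was under 0.05. TRBJ1 segments lie at the bottom with values down to -1.91 for circles, and TRBJ1-4 moves from 0.03 to -1.27 between the fits.

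Among V segments TRBV10 and TRBV16 were used more by members, and TRBV29 less. TRBV16 (chromosome 6, 41151740 to 41152230, mm10) made up 7.61% ± 1.12 of members and 4.07% ± 1.40 of the contrast (log2 0.76 ± 0.22, edgeR adjusted p = 0.00238, higher in 6 of 6 libraries). TRBV29 (41271394 to 41271881) made up 3.003% ± 1.92 and 6.04% ± 1.17 (log2 -0.96 ± 0.26, edgeR adjusted p = 0.00128, lower in 6 of 6). Sequences labelled TRBV10 made up 6.92% ± 1.89 and 3.25% ± 1.13 (log2 0.93 ± 0.23, edgeR adjusted p = 0.000535, higher in 6 of 6). The annotation used, GENCODE M21, has TRBV10 as a pseudogene. The label may not name the true segment, since 138 of its 165 sequences begin with tgtgccagcagc, which is not in the annotated TRBV10 end and opens the CDR3 of TRBV2, TRBV3 and TRBV5. The same 12 bases are also in the annotated end of TRBV4, a label that no eligible sequence carries. Which segment the TRBV10 label stands for was not tested. The calls for the other 9 segments were kept without the TRBV10-labelled sequences. Among CDR3 of 14 residues alone both calls for higher use were lost (TRBV10 log2 0.62, edgeR adjusted p = 0.229, and TRBV16 log2 0.27, edgeR adjusted p = 0.747). TRBV16 also lost its call with codons outside germline matches (edgeR adjusted p = 0.112) and with cells in place of sequences (0.0755).

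The V segments with most members were TRBV13-2 (130 members), TRBV3 and TRBV13-3 (87 each), TRBV19 (86) and TRBV16 (80). Besides TRBV16 none of these passed the threshold, with log2 fold changes from -0.08 for TRBV13-2 to 0.15 for TRBV19. TRBV12-1 had the next smallest p among higher segments (log2 0.33, edgeR adjusted p = 0.297). TRBV5 (log2 -0.52, edgeR adjusted p = 0.0823) and TRBV2 (log2 -0.68, edgeR adjusted p = 0.0874) had the next smallest among lower ones.

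Among V segments with over 100 sequences, position 6 was least often hydrophobic in TRBV2 and TRBV5. It was hydrophobic in 2.73% of the 110 TRBV2 sequences and 4.27% of the 211 TRBV5 sequences, but in 18.1% of the 199 TRBV16 sequences. All 3 germline ends supply ga as the first bases of codon 6, which fixes aspartate or glutamate when both bases are kept. The ends of TRBV1 (12.04% of 191 sequences hydrophobic at position 6) and TRBV17 (10.2% of 98) supply ga too. The matched germline stretch was longest in TRBV2 and TRBV5, with a mean of 15.6 and 15.1 bases. It was 14.8 bases in TRBV1, 14.3 in TRBV17 and 13.97 in TRBV16. A hydrophobic codon 6 cannot keep both bases and so shortens the match, so match length is not independent of the share. Why these segments differ at position 6 was not tested. At position 7 the shares were 17.3% in TRBV2, 18.01% in TRBV5 and 23.1% in TRBV16. TRBV29 was low at both positions (9.41% and 7.92%).

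Longer CDR3 held a hydrophobic apex more often within the range used. The share of members was 18.8% at 12 amino acids (431 sequences), 20.4% at 13 (712), 30.2% at 14 (1297), 30.4% at 15 (940) and 43.4% at 16 (410). Library ranges did not overlap between 13 residues (15.9% to 29.5%) and 16 residues (35.6% to 50.9%). Just outside the range the share was 30.2% at 11 residues (39 of 129) and 25.0% at 17 (29 of 116), so the rise does not continue past it. At 12 residues 39.7% of sequences had position 7 inside the germline J match, at 15 and 16 none did.

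The number of CDR3 bases that match neither germline V nor J was 10.6 ± 0.189 (SD, n = 6 libraries) in members and 9.92 ± 0.199 in the contrast. The difference of 0.646 bases was positive in 6 of 6 libraries (two-sided exact sign-flip test, p = 0.0312, adjusted p = 0.156 over 10 results). A hydrophobic codon at the apex can cut a germline match short. The count is therefore not independent of the rule. Among CDR3 of 14 residues alone it was -0.0974 bases (exact p = 0.750), so at a fixed length the difference was not seen.

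Neither genotype nor tissue separated the share of members beyond the spread between libraries. The share was 31.2% (227 of 728) and 25.5% (144 of 564) in the NonTg parenchyma libraries and 26.6% (206 of 775) and 30.02% (308 of 1026) in the 5xFADTg parenchyma libraries. The 2 NonTg values lay outside both 5xFADTg values, so the groups overlapped fully. The means were 28.4% ± 3.99 (SD, n = 2) and 28.3% ± 2.43 (two-sided exact permutation test, p = 1, where 2 against 2 libraries cannot give less than 0.333). Meninges gave 28.9% (92 of 318) in NonTg and 27.7% (105 of 379) in 5xFADTg mice, a mean of 28.3% ± 0.867 against 28.3% ± 2.70 in the 4 parenchyma libraries (exact permutation test, p = 1, smallest possible 0.133).

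Sequences with both apex residues hydrophobic were few in each library. There were 8 and 6 in NonTg parenchyma, 11 and 12 in 5xFADTg parenchyma, 3 in NonTg meninges and 5 in 5xFADTg meninges. As shares of the eligible sequences these were 1.10% and 1.06% in NonTg parenchyma and 1.42% and 1.17% in 5xFADTg parenchyma. Both 5xFADTg values were above both NonTg values, by 0.213 points in the mean (exact permutation test, p = 0.333, the smallest possible). The 95% exact binomial intervals of the 4 libraries, from 0.391% to 2.53% at their ends, overlapped.

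**Figure D4:**
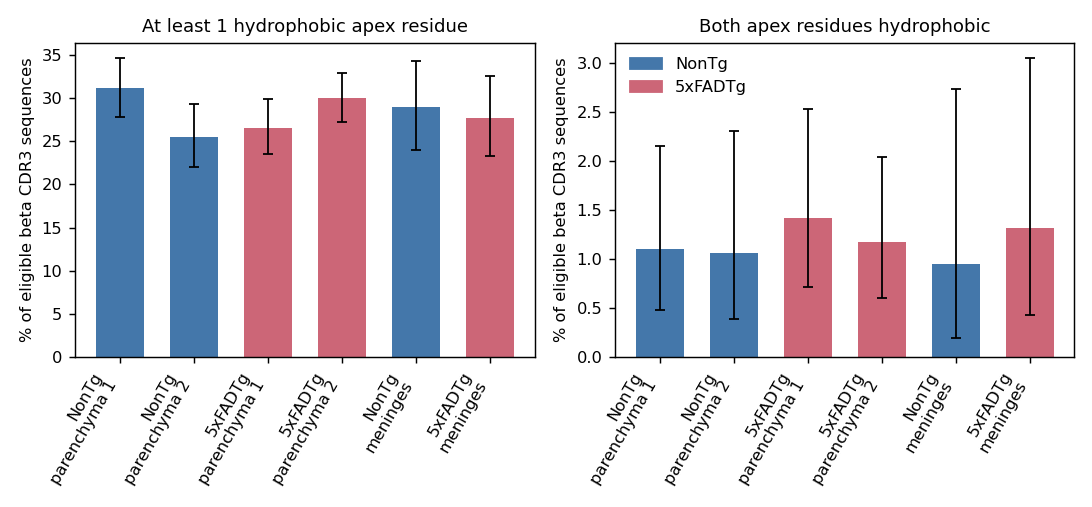
Share of eligible beta CDR3 sequences (y axis, percent) with at least 1 (left) and with both (right) apex residues hydrophobic in each library. Bars are single libraries with 95% exact binomial intervals, which cover counting error only. Shares run from 25.5% to 31.2% on the left and from 0.943% to 1.42% on the right, and all intervals overlap.

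Counted by cells instead of sequences, members held 39.6% and 41.8% of the cells with an eligible sequence in NonTg parenchyma, 24.2% and 35.0% in 5xFADTg parenchyma, 31.2% in NonTg meninges and 29.6% in 5xFADTg meninges. Both 5xFADTg parenchyma values lay below both NonTg values, by 10.7 points in the mean (exact permutation test, p = 0.333, the smallest possible). Single large sequences weigh on these shares, such as the one of 99 among the 934 eligible cells of NonTg parenchyma 2.

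Sequences found in 2 or more cells of a library, called expanded, were members about as often as sequences found in 1 cell. The mean over libraries was 29.2% ± 5.52 (SD, n = 6) for expanded and 28.1% ± 1.80 for 1-cell sequences. The difference of 1.09 points was positive in 4 of 6 libraries (two-sided exact sign-flip test, p = 0.594, adjusted p = 0.990 over 10 results). By size the share of members was 28.2% of 3241 sequences in 1 cell, 28.6% of 398 in 2 to 4 cells, 31.2% of 80 in 5 to 9 cells and 42.3% of 71 in 10 or more cells, the last with an exact interval of 30.6% to 54.6%. That interval pools the libraries and covers counting error only. In the 4 parenchyma libraries the difference from 1-cell sequences ran from 1.60 to 36.5 points (two-sided exact sign-flip test, p = 0.125, the smallest possible, adjusted p = 0.304 over 17 added comparisons). The largest sequence was a member in 4 of the 6 libraries. That of 5xFADTg meninges was the same sequence as that of 5xFADTg parenchyma 2. Among the 10 largest of each library, 23 of 60 were members (38.3%), against 28.5% of all eligible sequences. A sequence shared between libraries is counted in each of them.

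In the subclass with both residues hydrophobic 4 of 45 sequences were expanded. The other 41 were in 1 cell, as were 3241 of all 3790 eligible sequences. The share of the subclass was 0.468% ± 0.748 among expanded and 1.26% ± 0.128 among 1-cell sequences, lower in 5 of 6 libraries (exact sign-flip test, p = 0.0938, adjusted p = 0.312). The largest filled 42 cells and was the fourth largest sequence of 5xFADTg parenchyma 1, listed above with leucine at both positions (CTCCTG). It alone among the 60 largest sequences had both. One such sequence of each other library sets the apex pairs side by side. That of 5xFADTg parenchyma 2 was the largest there, and in the other 4 libraries all such sequences were in 1 cell, so the one shown is 1 of several tied.
NonTg parenchyma 1, TRBV3 and TRBJ2-5, 1 cell, leucine and leucine: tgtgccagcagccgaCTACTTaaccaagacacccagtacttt
NonTg parenchyma 2, TRBV1 and TRBJ2-4, 1 cell, tyrosine and tryptophan: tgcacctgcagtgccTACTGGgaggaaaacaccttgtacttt
5xFADTg parenchyma 2, TRBV3 and TRBJ2-2, 6 cells, leucine and leucine: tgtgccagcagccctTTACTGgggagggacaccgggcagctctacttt
NonTg meninges, TRBV3 and TRBJ2-7, 1 cell, valine and tryptophan: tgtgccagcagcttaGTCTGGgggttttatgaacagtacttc
5xFADTg meninges, TRBV1 and TRBJ2-3, 1 cell, valine and tryptophan: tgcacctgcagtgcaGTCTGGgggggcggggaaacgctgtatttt
The pairs were tyrosine and tryptophan in 10 sequences, valine and leucine in 8, leucine and leucine in 5, valine and tryptophan in 5, and 11 others in 1 to 3 each. In 41 of the 45 the J segment was of the TRBJ2 cluster, and 13 V segments were used, led by TRBV13-2 (8) and TRBV3 (7). Of 42 assessed sequences 31 matched TRBD2 and 1 matched TRBD1.

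A hydrophobic apex was less frequent beside an iNKT-like alpha chain, but not beyond the spread between libraries. An alpha chain was called iNKT-like when it joined TRAV11 to TRAJ18 with a CDR3 of 15 amino acids, and a beta sequence when over 50% of its cells with an alpha chain carried one. Of 176 iNKT-like beta sequences 41 were members (23.3%), against 886 of 3005 with another alpha chain (29.5%). By library the iNKT-like share was 31.2%, 11.1%, 28.6%, 23.8%, 13.3% and 25.0% in NonTg parenchyma 1 and 2, 5xFADTg parenchyma 1 and 2, NonTg meninges and 5xFADTg meninges, from 15 to 63 sequences each. The other sequences of the same libraries lay between 26.8% and 32.2%. The mean difference was -6.98 points, lower in 4 of 6 libraries (two-sided exact sign-flip test, p = 0.125, adjusted p = 0.312). With each sequence weighted by its cells the difference was -14.0 points (exact p = 0.0312). That p comes from an alternative setting and is not adjusted. Large members without an iNKT-like partner, such as the one in 99 cells of NonTg parenchyma 2, weigh on this value.

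The J segments of the 2 partner classes are given beside this, and their part in the result was not tested. The iNKT-like sequences used TRBJ2 in 53.4% and the others in 66.0%. Within TRBJ2, 33 of 94 iNKT-like (35.1%) and 717 of 1982 other sequences (36.2%) were members. Within TRBJ1 it was 8 of 82 (9.76%) and 169 of 1023 (16.5%). The iNKT-like beta sequences used the V segments TRBV13-1, TRBV13-2, TRBV13-3, TRBV29 or TRBV1 in 90.9%, the others in 33.5%. These are V segments known from iNKT cells. The most used of them, TRBV13-2, had 20 members of 90 iNKT-like and 93 of 309 other sequences. TRBV5 was used by 6 iNKT-like sequences, of which 5 were members, a count singled out after it was seen.

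Of the 41 iNKT-like members 2 were found in 2 cells and the other 39 in 1 cell. Both of the former, from 5xFADTg parenchyma 2, and 1 of the latter from the same library, which stands for 39 tied sequences, show different hydrophobic apices.
TRBV5 and TRBJ2-5, 2 cells, glycine and leucine: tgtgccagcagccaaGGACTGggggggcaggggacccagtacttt
TRBV13-2 and TRBJ2-4, 2 cells, valine and glycine: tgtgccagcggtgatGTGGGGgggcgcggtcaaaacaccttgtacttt
TRBV1 and TRBJ2-7, 1 cell, aspartate and valine: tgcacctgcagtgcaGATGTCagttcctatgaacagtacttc
The first has the leucine frame of TRBD2 at the apex. Only 1 of its 2 cells had an alpha chain, so its iNKT-like call rests on that cell. The third matched no D segment. Of the 41 sequences with both residues hydrophobic and an alpha chain 2 were iNKT-like (4.88%), against 176 of all 3181 with an alpha chain (5.53%). For MAIT-like alpha chains (TRAV1 joined to TRAJ33 with a CDR3 of 12 amino acids), which mark T cells that see vitamin B metabolites on MR1, 2 of 23 beta sequences were members (8.70%, exact interval 1.07% to 28.04%). Among sequences with another alpha chain 925 of 3158 were members (29.3%). The interval pools the libraries, and this difference was not tested.

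**Figure D5:**
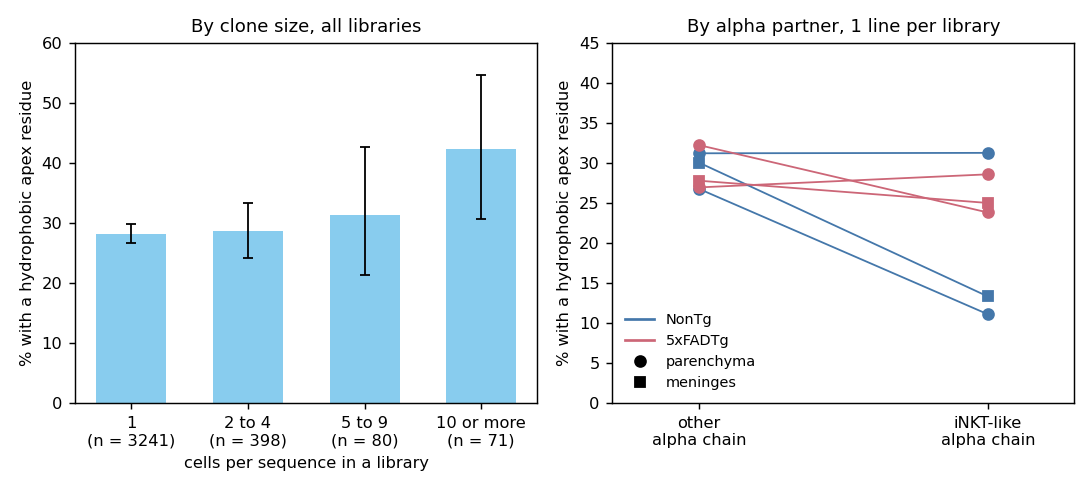
Left, share of sequences with a hydrophobic apex residue (y axis, percent) by the number of cells in which a sequence was found (x axis), all libraries, with 95% exact binomial intervals. The intervals pool the libraries and cover counting error only. Right, the same share among sequences with another and with an iNKT-like alpha chain, 1 line per library. Sequences in 10 or more cells stand at 42.3% with an interval from 30.6% to 54.6%, and 4 of the 6 lines fall towards the iNKT-like side.

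Members of the meninges were often found in the parenchyma of the same genotype. In NonTg mice 29 of 92 meningeal members (31.5%) and 56 of 226 meningeal contrast sequences (24.8%) were also in NonTg parenchyma. In 5xFADTg mice it was 21 of 105 and 52 of 274 (18.98%). The exact binomial intervals of members and contrast overlapped in both genotypes (22.2% to 42.0% against 19.3% to 30.9%, and 12.8% to 28.9% against 14.5% to 24.1%). With 1 meningeal library per genotype there is no replicate check of these shares.

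Some amino acid sequences were found in several libraries. Of 1011 member sequences 65 (6.43%) were found in 2 or more libraries, and of 2541 contrast sequences 139 (5.47%). Libraries of both genotypes held 11 (1.09%) and 26 (1.02%) of them, and 15 members (1.48%) and 48 contrast sequences (1.89%) were written by 2 or more nucleotide sequences. In 3 or more libraries were 1 member (0.0989%) and 11 contrast sequences (0.433%). That member was the TRBV10 sequence of 55 cells listed above, which was also in 5 cells of NonTg meninges. 5xFADTg parenchyma 1 held it once with another V segment, TRBV13-3, as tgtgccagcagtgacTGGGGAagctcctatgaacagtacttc.

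Of 1027 distinct member nucleotide sequences, 5 were found in libraries of both genotypes. No cell barcode was shared between their libraries. Of 2595 distinct contrast sequences 4 were. All 5 members used TRBJ2, as did 80.8% of all members, and had leucine or tryptophan at the apex, as did 68.8%.
TRBV3 in both genotypes, TRBJ2-2: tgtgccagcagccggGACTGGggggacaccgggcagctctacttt
TRBV2 in 5xFADTg and TRBV5 in NonTg, TRBJ2-7: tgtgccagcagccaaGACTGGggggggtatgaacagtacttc
TRBV3 in both genotypes, TRBJ2-7: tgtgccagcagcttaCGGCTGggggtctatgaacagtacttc
TRBV3 in 5xFADTg and TRBV10 in NonTg, TRBJ2-4: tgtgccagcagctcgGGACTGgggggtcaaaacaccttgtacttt
TRBV20 in both genotypes, TRBJ2-4: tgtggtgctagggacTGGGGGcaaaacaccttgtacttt
The first filled 18 cells of 5xFADTg parenchyma 2 and 1 cell of NonTg parenchyma 2, and the other 4 were in 1 cell on each side. In 2 of the 5 the V calls differed between the genotypes, so the CDR3 and not the whole chain was the same. In 5xFADTg parenchyma 2 the protein sequence of the first was also written by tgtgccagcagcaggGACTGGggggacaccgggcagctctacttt, in 11 cells, which differs within codon 5 only. Another amino acid sequence, with the same aspartate and tryptophan at the apex, was written in 3 ways across 5xFADTg parenchyma 2 and NonTg parenchyma 2, each in 1 cell.
TRBV5 and TRBJ2-7, 5xFADTg parenchyma 2: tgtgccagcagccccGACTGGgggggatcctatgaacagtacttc
TRBV5 and TRBJ2-7, NonTg parenchyma 2: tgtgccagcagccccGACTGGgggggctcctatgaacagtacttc
TRBV19 and TRBJ2-7, NonTg parenchyma 2: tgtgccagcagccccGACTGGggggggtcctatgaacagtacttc
These differ in the base that follows ggggg after the capitals, which is a, c or g, and not in the capitals.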

How the data were processed

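Per the labels' protocols, receptor chains of CD45+ cells were amplified with a 10x Chromium immune profiling kit (v2). The submitters' processing notes name Cell Ranger 6.0 and mm10. Other upstream filters are not given in these sources. The deposited contig tables hold raw counts of reads and UMIs per contig with V, D, J and CDR3 calls, per the file headers. Productive TRB contigs were reduced to 1 row per CDR3 nucleotide sequence and library, and 174 shorter and 145 longer sequences were left out. Cells with 2 or more TRB stayed in, and no doublet caller was run. A joint TRBV12-2 and TRBV13-2 label was counted as TRBV13-2. Germline ends and positions came from GENCODE M21 (GRCm38). TRBV10 could not be matched to its germline end and was left out of germline matching, so origins were assessed for 1010 members.

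Libraries were the replicates of the exact tests, whose p-values measure the spread between libraries only. The edgeR p-values come from a count model of sequences per segment. They also depend on the number of sequences, so they can be far smaller than an exact test over 6 libraries allows. Shares were compared by two-sided exact permutation or sign-flip tests with Benjamini-Hochberg adjustment over 10 results, and comparisons added later over 17. Segment use was tested with edgeR 4.0.16 (quasi-likelihood, limma 3.58.1, R 4.3.3) on sequences per segment, members and contrast as 12 columns with library as block, class sizes as library sizes, at least 10 sequences per segment and an adjusted p under 0.05. V and J segments were fitted together. DESeq2 1.42.0 was an alternative. In simulated tables of 33 segments over 20 draws the fit recovered 55 of 60 segments with 2-fold and 60 of 60 with 4-fold changes and made 2 other calls. Other steps ran in Python 3.11.15 (scipy 1.17.1, numpy 2.4.6, pandas 2.3.3, matplotlib 3.10.9). Intervals are 95% exact binomial (Clopper-Pearson), and the limit beside a count of 0 is 3 counts. Both cover counting error only.

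The members, lists and tests were chosen with earlier results of these data known. Named were every segment past the threshold, the 5 TRBV and 3 TRBJ with most members, the 3 TRBV with the smallest p each way, the 2 largest members and the largest sequence with both residues hydrophobic of each library, members found in most libraries, and the 3 largest iNKT-like members. Other sequences found in both genotypes, TRBJ1-4, TRBJ1-6 and the TRBV5 count were singled out after their values were seen. Alternatives covered the counting unit, UMI minimum, cells with 1 TRB, weighting by cells, length, residue set, positions, iNKT-like sequences, scaling, tool, blocks and each library left out.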

Additional observations from a re-analysis of the deposited data

How the results depend on the processing

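The genotype difference in the share of members, near 0, turned positive with amino acid sequences (0.0435 percentage points), at least 2 UMIs (0.280) and cells with exactly 1 TRB (0.473), and ran from -2.88 to 2.77 when a library was left out. The tissue difference, also near 0, turned positive with amino acid sequences (0.0340), at least 2 UMIs (0.298), cells with 1 TRB (0.221), length 14 only (2.30) and without iNKT-like sequences (0.316), and ran from -0.943 to 0.940 with a library left out. For both residues hydrophobic, the tissue difference turned positive without tyrosine and cysteine (0.195) and with the middle 2 residues of the loop (0.0642), and ran from -0.245 to 0.131, and the genotype difference ran from 0.0882 to 0.338. None of these passed a threshold their design cannot reach, so they say nothing of stability. The expansion difference over 6 libraries ran from 0.0965 to 2.49 with a library left out. It was -0.747 with the middle 2 residues and, added after the data were seen, -0.970 in meninges alone. For both residues hydrophobic it reached exact p = 0.0312 at length 14 (-1.54 points) and with the middle 2 residues (-1.04), was 0.119 for 10 or more cells in parenchyma (added), and ran from -1.02 to -0.669 with a library left out. The iNKT-like difference was -14.0 weighted by cells (exact p = 0.0312) and ran from -8.70 to -5.03, and for both residues it was -1.38 at length 14 (exact p = 0.0312) and ran from -0.695 to 0.00352. TRBJ2 use ran from 19.6 to 22.7 points and inserted bases from 0.553 to 0.712 with a library left out, where 5 libraries cannot give an exact p below 0.0625. Inserted bases turned to -0.0974 at length 14 and -0.0778 with the middle 2 residues. In the segment fit 2 segments were higher both with cells in place of sequences and at length 14, and TRBJ2-4 turned to -0.051 and -0.095 there on the log2 scale. At length 14 TRBJ1-3, TRBJ1-5, TRBJ2-1, TRBJ2-4, TRBV10 and TRBV16 lost their calls, and with cells TRBJ2-4, TRBJ2-5 and TRBV16 did. The cause of these changes was not tested, and the exact p-values of the alternatives are not adjusted. A paired fit with the replicate block left the genotype differences at -0.0565 and 0.213 (smallest exact p = 0.5). The labels pair the libraries by number only, and library 1 deviated from its genotype mean with r = 0.260 between genotypes over 33 segments, which are not independent replicates. The 45 sequences with both residues hydrophobic give wide intervals in each library.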

Other observations

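The comparisons in this section were chosen after the data were seen, and their p-values are adjusted over the 17 added comparisons. Each 5xFADTg library had a higher TRBJ2 share among its members than any NonTg library, and in the contrast the groups overlapped. The 3 5xFADTg libraries had 84.1% ± 1.19 (SD, n = 3) and the 3 NonTg libraries 76.2% ± 1.06, with no overlap (exact permutation test, p = 0.100, the smallest 3 against 3 libraries can give, adjusted p = 0.304). Meningeal and parenchymal libraries of a genotype share sequences, and within parenchyma alone the difference was 7.54 points (exact p = 0.333, the smallest possible). In the contrast the means were 57.7% ± 2.40 and 60.7% ± 1.99 (exact p = 0.200). The counterpart lay in TRBJ1 sequences, of which 11.8%, 14.2% and 12.4% were members in 5xFADTg parenchyma 1, 5xFADTg parenchyma 2 and 5xFADTg meninges, and 20.2% (52 of 258), 34 of 200 and 21.5% (23 of 107) in NonTg parenchyma 1, NonTg parenchyma 2 and NonTg meninges (exact p = 0.100, adjusted p = 0.304). In TRBJ2 sequences the means were 36.3% ± 2.44 and 33.4% ± 3.56 (exact p = 0.300).

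The largest parenchymal sequences were members more often than 1-cell sequences in each of the 4 parenchyma libraries. Of the sequences in 10 or more cells 8 of 20 and 5 of 8 were members in NonTg parenchyma 1 and 2, and 5 of 18 and 11 of 24 in 5xFADTg parenchyma 1 and 2. The mean difference from 1-cell sequences was 16.1 points (exact sign-flip test, p = 0.125, the smallest 4 libraries can give, adjusted p = 0.304). The difference was 9.23, 36.5, 1.60 and 16.9 points in the same order, and without NonTg parenchyma 2 the mean fell to 9.23 points. TRBJ2 use of these large sequences was 67.1% ± 16.1 (SD, n = 4) against 64.7% ± 1.73 in 1-cell sequences, and within TRBJ2 alone 54.1% ± 8.79 of large and 34.5% ± 2.99 of 1-cell sequences were members (exact p = 0.125, adjusted p = 0.304).

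Cysteine was rare throughout the loop apart from position 3, where 190 of 3790 sequences had it. The TRBV1 sequences listed above all have tgc, a cysteine codon, at position 3, and 191 eligible sequences carry the TRBV1 label. At positions 5, 6 and 7 there was none, at positions 4, 8, 9 and 10 there were 1, 1, 2 and 3.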
